A study of Sus scrofa with 4 samples.

Results

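The family of miR-148 and miR-152 was represented by 5 of the 271 miRNA rows counted in longissimus dorsi, the long muscle of the pig back. These were the rows whose name, with the arm suffix removed, is miR-148a, miR-148b or miR-152, namely miR-148a-3p, miR-148b-3p, miR-152, miR-148a-5p and miR-148b-5p. The study made 1 small RNA library from each of 4 breeds. The indigenous Chinese type was represented by Diannan Small Ear and Tibetan pigs and the introduced type by Landrace and Yorkshire pigs, with 2 libraries each. The labels give no treatment, allele, age, sex or batch, and do not say whether a library held 1 animal or a pool, so p-values measure only the spread between these libraries, which may be partly technical. The study concerns growth and lipid deposition in muscle.

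A microRNA guides repression of messenger RNAs mainly through its seed, a short stretch near its 5′ end. miR-148a-3p, miR-148b-3p and miR-152 share a seed and so can pair with the same sites, while the -5p rows come from the opposite arm of the hairpin precursor and carry other seeds. In mouse myoblasts miR-148a promotes differentiation and represses the kinase Rock1, in human stromal cells it favours fat cell differentiation, and in human cells the family represses the DNA methyltransferase DNMT1. In the RefSeq annotation of Sscrofa11.1, used here for names and neighbours only, MIR148B overlaps COPZ1 and MIR152 overlaps COPZ2, which encode paralogous zeta subunits of the coatomer vesicle coat. MIR148A overlaps no protein-coding gene there and lies between NFE2L3 and NPVF. The mature sequences of the 3 same-seed miRNAs are nearly identical, so reads may be shared between their rows and their separate values are uncertain to that extent.

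The libraries held 2507082 to 5346460 counts over the listed miRNAs, and they did not group by type. Across 197 miRNAs, which are not independent, Pearson's r of log2(CPM + 1) reached 0.981 for Diannan Small Ear with Landrace and 0.973 for Tibetan with Yorkshire, against 0.774 to 0.781 in the other 4 comparisons. The labels hold no record of preparation batches, so a batch cannot be told apart from breed here, and whether libraries were exchanged was not tested. Each value below is that of the library labelled with the breed. miR-1, the main muscle miRNA, took 83.4% of the Tibetan and 92.6% of the Yorkshire counts but 0.256% in Diannan Small Ear and 0.355% in Landrace. miR-133a-3p, another defining muscle miRNA, had 243554 counts in Diannan Small Ear, 167451 in Landrace, 103226 in Tibetan and 59941 in Yorkshire. With the TMM scaling described below it lay between 29179 and 40624 CPM in all 4, an evenness that rests on that scaling. miR-10b took 61.9% of the Diannan Small Ear and 46% of the Landrace counts but 0.526% in Tibetan and 0.177% in Yorkshire. Because miR-1 or miR-10b fills so much of each library, levels are given as CPM after TMM scaling. CPM are counts scaled to a common library size, and TMM scaling sets the bulk of miRNAs level. Levels are compared with plain total counts where that turns a direction. Ratios between rows of 1 library need no scaling.

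Of the same-seed miRNAs, miR-148a-3p varied least over the 4 breeds after TMM scaling, whereas miR-148b-3p and miR-152 were many-fold higher in Tibetan and Yorkshire muscle than in Diannan Small Ear and Landrace muscle. miR-148a-3p measured 1676 CPM in Diannan Small Ear, 1441 in Landrace, 2078 in Tibetan and 2341 in Yorkshire. Its highest level was 1.63 times its lowest, but by total counts its level lay between 807 CPM in Yorkshire and 3187 CPM in Landrace. miR-148b-3p measured 259 CPM in Diannan Small Ear, 207 in Landrace, 2423 in Tibetan and 2557 in Yorkshire. Tibetan and Yorkshire were the high libraries, and miR-148b-3p there exceeded miR-148a-3p. miR-152 measured 21.7 CPM in Diannan Small Ear, 27.6 in Landrace, 1002 in Tibetan and 615 in Yorkshire. Its order was the same except that Tibetan exceeded Yorkshire and Landrace exceeded Diannan Small Ear. In both types, 1 breed was therefore high and the other low, and the types overlapped for both miRNAs.

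**Figure D1:**
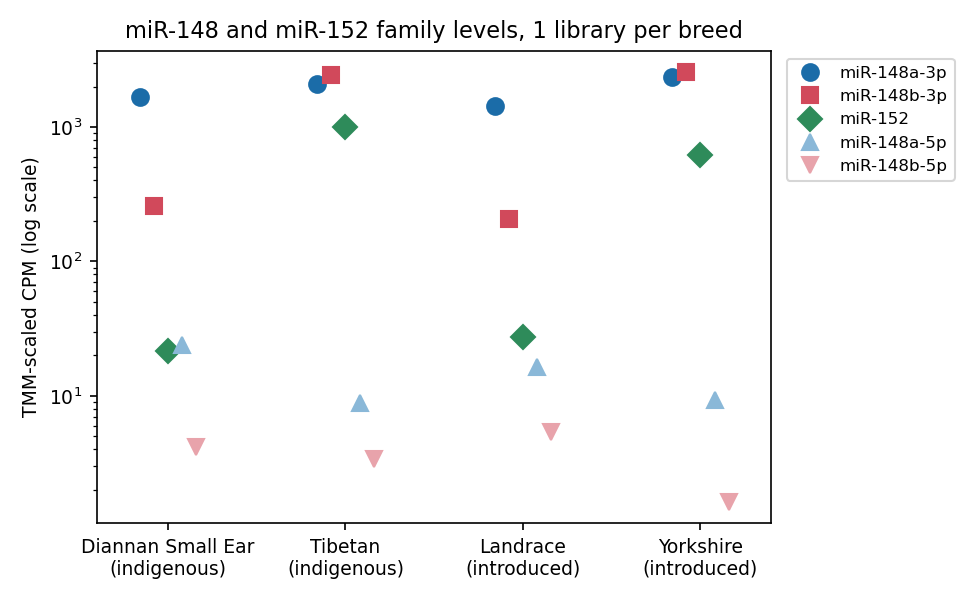
TMM-scaled CPM (log scale) of the 5 family rows in each breed, with 1 point per library, set side by side to avoid overlap. miR-148a-3p stays between 1441 and 2341 CPM, while miR-148b-3p and miR-152 sit high in Tibetan and Yorkshire and low in Diannan Small Ear and Landrace.

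On the TMM scale, the standard deviation of log2 CPM over the 4 libraries was 0.31 for miR-148a-3p, the 14th smallest of 197 miRNAs, against a median of 0.97. It was 1.98 for miR-148b-3p and 2.89 for miR-152, where 82.2% and 94.4% of the miRNAs varied less. By rank of counts within a library, miR-148a-3p stood 23rd in Diannan Small Ear and Landrace and 16th in Tibetan and Yorkshire. miR-152 moved from 102nd in Diannan Small Ear and 96th in Landrace to 29th in both others.

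Within the indigenous type, miR-148b-3p was 9.35-fold higher in Tibetan than in Diannan Small Ear (95% counting interval 8.85 to 9.87) and miR-152 was 46.2-fold higher (38.8 to 55.5). miR-148a-3p was 1.24-fold higher (1.20 to 1.28). Within the introduced type, miR-148b-3p was 12.3-fold higher in Yorkshire than in Landrace (11.6 to 13.2), miR-152 22.3-fold (18.8 to 26.6) and miR-148a-3p 1.63-fold (1.57 to 1.69). With 1 library a breed these ratios have no replicate check, and the intervals cover counting error only. The direction for miR-148a-3p turned with the scaling. By total counts it was 1.09-fold higher in Diannan Small Ear than in Tibetan and 3.95-fold higher in Landrace than in Yorkshire. The other 2 kept their direction, at 6.91-fold and 1.92-fold for miR-148b-3p and 34.2-fold and 3.47-fold for miR-152 by total counts. The median log2 ratio of all miRNAs shifted from -0.19 to 0.25 for Diannan Small Ear over Tibetan, and from -0.21 to 2.47 for Landrace over Yorkshire, between the 2 scalings.

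Such differences between breeds were common across the table. With TMM scaling, at least 2-fold lower levels in Diannan Small Ear than in Tibetan were found in 2 of the 5 family rows and in 36.6% of 194 miRNAs, and in Landrace than in Yorkshire in 2 of 5 and in 34.4% of 192. At least 2-fold higher levels, on the same scale, were found in 1 of 5 rows in each comparison, miR-148a-5p in Diannan Small Ear over Tibetan (2.72-fold, 1.84 to 4.15) and miR-148b-5p in Landrace over Yorkshire (3.32-fold, 1.03 to 17.0), against 27.3% and 32.3% of the miRNAs. By total counts, 2 of 5 rows were lower and 1 higher in Diannan Small Ear than in Tibetan, against 32.5% and 37.6% of the miRNAs. In Landrace over Yorkshire the split turned to 1 of 5 lower and 3 of 5 higher, against 7.29% and 73.4%. With TMM scaling miR-152 was at least 10-fold lower in both comparisons, as were 8.9% of 191 miRNAs, whereas by total counts it was 3.47-fold lower in Landrace. On the TMM scale it had the 5th lowest ratio of Diannan Small Ear over Tibetan and the 9th lowest of Landrace over Yorkshire. miR-148b-3p stood 24th and 15th, and miR-148a-3p 93rd and 77th, near the middle.

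**Figure D2:**
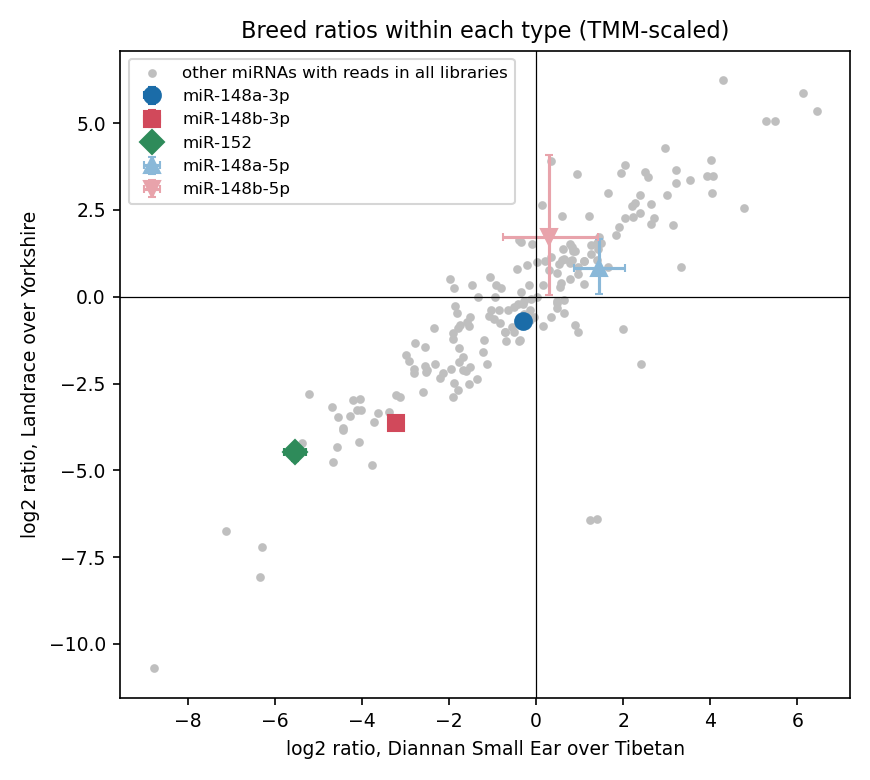
Log2 ratio of TMM-scaled counts of Diannan Small Ear over Tibetan (horizontal) and Landrace over Yorkshire (vertical), with 95% counting intervals on the family rows and other miRNAs in grey. miR-152 and miR-148b-3p lie at the lower left, where both ratios are below 0, and miR-148a-3p lies near the origin.

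With TMM scaling, the libraries that resembled each other differed less. Between Diannan Small Ear and Landrace 0 of 5 family rows differed at least 2-fold, against 8.67% of 196 miRNAs. By total counts these were 2 of 5 and 32.7%. miR-148a-3p was 1.16-fold higher in Diannan Small Ear (1.13 to 1.20), miR-148b-3p 1.25-fold higher (1.16 to 1.35) and miR-152 1.27-fold higher in Landrace (1.00 to 1.62). By total counts all 3 were higher in Landrace, by 1.43-fold, 1.33-fold and 2.11-fold. Between Tibetan and Yorkshire 1 of 5 rows, miR-148b-5p with 12 and 3 counts, differed at least 2-fold, against 24.5% of 192 miRNAs. By total counts all 5 did, each higher in Tibetan, as against 80.7% of the miRNAs in either direction. miR-152 was 1.63-fold higher in Tibetan (1.52 to 1.74), while miR-148a-3p and miR-148b-3p were 1.13-fold (1.08 to 1.17) and 1.06-fold (1.02 to 1.09) higher in Yorkshire. By total counts all 3 were higher in Tibetan, by 2.54-fold, 2.71-fold and 4.66-fold for miR-148a-3p, miR-148b-3p and miR-152.

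The make-up of the same-seed pool, which no scaling alters, was mainly miR-148a-3p in Diannan Small Ear and Landrace and a mixture in Tibetan and Yorkshire. miR-148a-3p made up 85.6% of the same-seed counts in Diannan Small Ear (95% Wilson interval 85.0 to 86.3) and 86.0% in Landrace (85.3 to 86.7). Its share was 37.8% in Tibetan (37.1 to 38.4) and 42.5% in Yorkshire (41.5 to 43.4). miR-148b-3p accounted for 13.2% of them (12.6 to 13.9) in the Diannan Small Ear library and 12.4% (11.7 to 13.1) in Landrace, but was the largest part in Tibetan at 44.0% (43.3 to 44.7) and in Yorkshire at 46.4% (45.4 to 47.3). The share of miR-152 was 1.11% (0.934 to 1.31) for Diannan Small Ear and 1.65% (1.41 to 1.93) for Landrace, against 18.2% (17.7 to 18.8) for Tibetan and 11.2% (10.6 to 11.8) for Yorkshire.

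**Figure D3:**
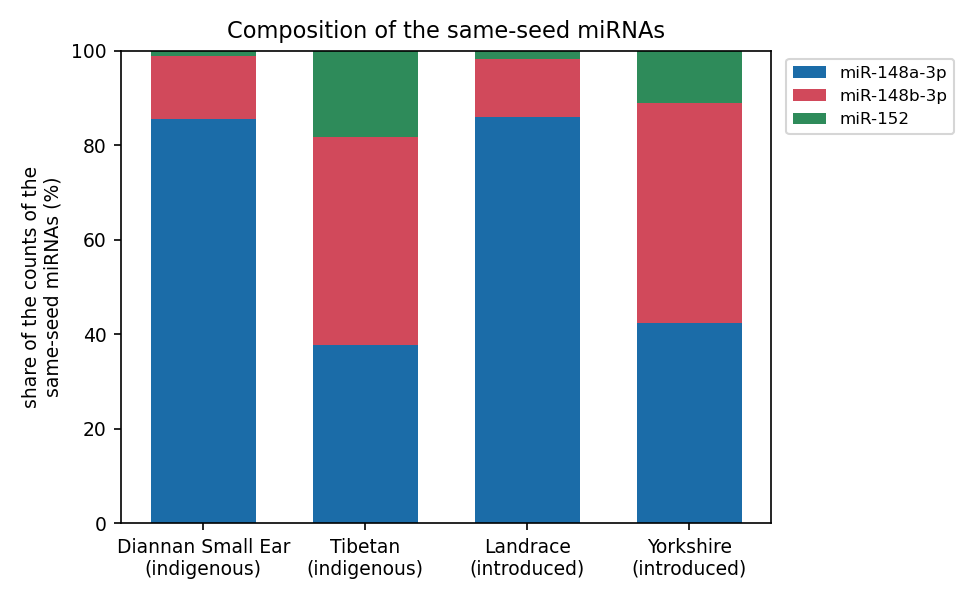
Share of miR-148a-3p, miR-148b-3p and miR-152 in their summed counts (%) in each breed, 1 library a bar. miR-148a-3p fills 85.6% and 86.0% of the bar in Diannan Small Ear and Landrace and 37.8% and 42.5% in Tibetan and Yorkshire.

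As ratios, miR-148b-3p counts were 0.155 of the miR-148a-3p counts in Diannan Small Ear, 0.144 in Landrace, 1.17 in Tibetan and 1.09 in Yorkshire. The ratio was 7.54-fold higher in Tibetan than in Diannan Small Ear (95% counting interval 7.08 to 8.02) and 7.59-fold higher in Yorkshire than in Landrace (7.05 to 8.19). These folds differ by less than their counting intervals. miR-152 counts were 0.0129 of the miR-148a-3p counts in Diannan Small Ear, 0.0191 in Landrace, 0.482 in Tibetan and 0.263 in Yorkshire. Here the folds were 37.3 (31.2 to 44.9) and 13.7 (11.5 to 16.4), with intervals that do not overlap. miR-148b-3p and miR-152 also moved apart from each other. There were 12.0 counts of miR-148b-3p for each of miR-152 in Diannan Small Ear, 7.51 in Landrace, 2.42 in Tibetan and 4.16 in Yorkshire.

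The 3 same-seed miRNAs together reached 1957 CPM in Diannan Small Ear, 1675 in Landrace, 5503 in Tibetan and 5513 in Yorkshire. Their sum was 2.81-fold higher in Tibetan than in Diannan Small Ear and 3.29-fold higher in Yorkshire than in Landrace. By total counts the sums were 2607, 3706, 5418 and 1899 CPM in the same order, so that Landrace exceeded Yorkshire 1.95-fold. The direction of the pool in the introduced breeds therefore rested on the scaling. In bulk muscle, fewer cells of a type and less RNA per cell cannot be told apart.

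For miR-148a, whose 3p arm is the main product, the 5p arm was the scarcer in every library. miR-148a-5p had 143 counts in Diannan Small Ear, 91 in Landrace, 31 in Tibetan and 17 in Yorkshire, or 23.9, 16.4, 8.76 and 9.23 CPM. It was higher in the libraries in which miR-152 was low. There were 70.3 counts of miR-148a-3p for each of miR-148a-5p in Diannan Small Ear (95% counting interval 59.6 to 83.5), 87.8 in Landrace (71.4 to 109), 237 in Tibetan (167 to 349) and 254 in Yorkshire (158 to 436). The ratio was 3.37-fold higher in Tibetan than in Diannan Small Ear (2.27 to 5.16) and 2.89-fold higher in Yorkshire than in Landrace (1.71 to 5.18). Between Diannan Small Ear and Landrace it differed 1.25-fold, with an interval of 0.952 to 1.65 for Landrace over Diannan Small Ear. Between Tibetan and Yorkshire it differed 1.07-fold, with an interval of 0.573 to 2.06 for Yorkshire over Tibetan.

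For miR-148b the ratio moved the same way and further, on fewer 5p counts. miR-148b-5p had 25 counts in Diannan Small Ear, 30 in Landrace, 12 in Tibetan and 3 in Yorkshire, or 4.17, 5.41, 3.39 and 1.63 CPM. There were 62.2 counts of miR-148b-3p for each of miR-148b-5p in Diannan Small Ear (41.9 to 96.4), 38.3 in Landrace (26.7 to 57.0), 714 in Tibetan (409 to 1383) and 1570 in Yorkshire (537 to 7614). Which arm moved more depended on the scaling in the introduced breeds. From Landrace to Yorkshire, miR-148b-3p was 12.3-fold higher and miR-148b-5p 3.32-fold lower with TMM, but 1.92-fold higher and 21.3-fold lower by total counts. miR-152 is listed as 1 row with no arm suffix, so no arm ratio was computed for it.

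Shifts of at least 2-fold were usual among the precursors, while the span of miR-148b was among the larger. Of 44 precursors with both arms listed and at least 10 counts over both arms in every library, the arm ratio differed at least 2-fold from Diannan Small Ear to Tibetan in 77.3% and from Landrace to Yorkshire in 72.7%, as it did in both miR-148a and miR-148b. The log2 arm ratio of miR-148a spanned 1.82 over the 4 libraries, the 14th smallest span of 44 and below the median of 2.90, and that of miR-148b spanned 5.16, the 39th. The spans nearest to that of miR-148a were 1.82 for miR-331 and 1.74 for miR-30e. In miR-30e, whose main arm is 5p, the log2 ratio of 3p over 5p was -2.50 in Diannan Small Ear, -2.19 in Landrace, -3.93 in Tibetan and -3.79 in Yorkshire. In miR-331 it was 2.81, 2.03, 1.58 and 0.99 in the same order. Averaged over the libraries, the arms of miR-148b and miR-148a were the 5th and 9th most unequal of the 44. The span and rank of miR-148b rest in part on 3 counts of miR-148b-5p in Yorkshire. The filter set no minimum for the scarcer arm alone, so few counts may widen other spans too.

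**Figure D4:**
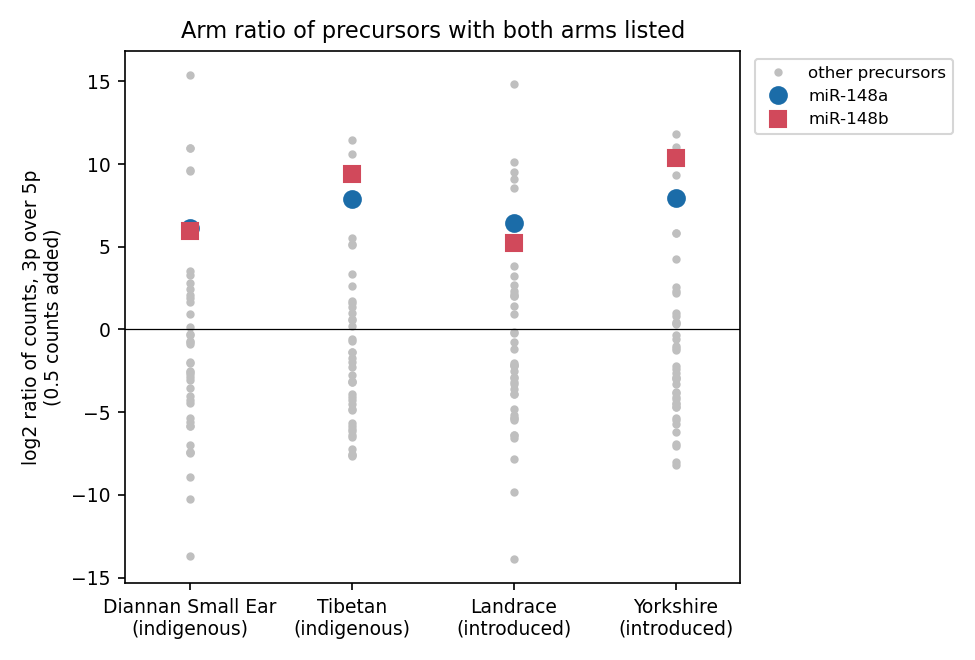
Log2 ratio of 3p over 5p counts (0.5 counts added to each) of 44 precursors in each breed, 1 library a column, with miR-148a and miR-148b in colour and 42 others in grey. Both family precursors lie above 0 in every library and higher in Tibetan and Yorkshire than in Diannan Small Ear and Landrace.

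Between the types, 0 of the 5 family rows passed the test, and neither did any of the 197 miRNAs tested (0%, edgeR quasi-likelihood test with Benjamini-Hochberg adjustment at 0.05). DESeq2 and limma-voom also called 0, and each of the 3 tools gave 1 miRNA with an unadjusted p under 0.05. miR-148a-3p averaged 1877 ± 284 CPM in the indigenous against 1891 ± 637 CPM in the introduced type (SD, n = 2 each). Its log2 fold change was -0.011 ± 0.90 (SE, edgeR adjusted p = 0.996). The adjusted p was 0.996 for all 5 rows. miR-148b-3p averaged 1341 ± 1530 against 1382 ± 1661 CPM, a log2 fold change of -0.043 ± 1.69. miR-152 averaged 512 ± 693 against 321 ± 415 CPM, a log2 fold change of 0.67 ± 2.14. For both, the SD within a type exceeded the mean. Leaving out 1 library turned the direction for miR-152, to -3.88 when Tibetan and -0.12 when Landrace was removed, and removing Yorkshire gave 4.08. miR-148a-5p and miR-148b-5p had log2 fold changes of 0.34 ± 1.00 and 0.061 ± 0.86. The types overlapped in all 5 rows, while they did not overlap in 13.7% of the 197 miRNAs.

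Tibetan against Yorkshire and Diannan Small Ear against Landrace compare the types between libraries that resemble each other. The labels do not give these pairs. They were picked by resemblance in the same counts, so a fall in SE was built in. With a term for them the SE fell, without a call in the family. The log2 fold change was then 0.023 ± 0.33 for miR-148a-3p, 0.12 ± 0.32 for miR-148b-3p (both edgeR signs turned from the test of type alone) and 0.20 ± 0.35 for miR-152. That test called 0.508% of the 197 miRNAs. The authors' deposited table gives miR-152 a fold of 3.72 for indigenous over introduced with an FDR of 5.71e-50, and miR-148b-3p a fold of 2.04 with an FDR of 1.78e-53. For miR-148a-3p the authors' deposited table gives 1.07 with an FDR of 0.0776. For miR-148a-5p and miR-148b-5p the authors' deposited table gives folds of 1.02 and 0.71, each with an FDR of 1.0. Those folds are ratios of mean CPM by total counts, and the sources used here do not name the test behind the FDR.

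The within-library ratios did not separate the types either. The log2 ratio of miR-148a-3p over miR-148a-5p averaged 7.00 ± 1.23 in indigenous and 7.20 ± 1.06 in introduced breeds (SD, n = 2 each, exact permutation p = 0.667, two-sided, adjusted p = 1 over 5 ratios). That of miR-152 over miR-148a-3p averaged -3.66 ± 3.69 against -3.81 ± 2.67 (n = 2 each, exact permutation p = 1). That of miR-148b-3p over miR-148a-3p averaged -1.24 ± 2.06 against -1.34 ± 2.07 (n = 2 each, exact permutation p = 0.667). Those of miR-148b-3p over miR-152 and of miR-148b-3p over miR-148b-5p both had an exact permutation p of 1. With 2 libraries against 2 the smallest p that can be reached is 0.333.

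The profiles most like those of the family were found by the root mean square difference of log2 CPM over the 4 libraries, after each profile was centred on its mean. Candidates were 136 other miRNAs (137 for miR-148b-5p) with a mean of at least 10 CPM by total counts over the 4 libraries. Levels in single libraries could be lower, as for miR-20a with 4.34 TMM-scaled CPM in Diannan Small Ear. Among the candidates miR-30e-5p was the nearest to miR-148a-3p, at 0.066. It measured 2029 CPM in Diannan Small Ear, 1706 in Landrace, 2540 in Tibetan and 2549 in Yorkshire. miR-142-5p followed at 0.14 and miR-30b-5p at 0.15. Nearest to miR-148b-3p were miR-133a-5p, the minor arm of a muscle miRNA, at 0.18, miR-199a-5p at 0.26 and miR-339 at 0.33. miR-133a-5p measured 50.2, 55.5, 618 and 564 CPM in the order Diannan Small Ear, Landrace, Tibetan and Yorkshire. Nearest to miR-152 were miR-20a at 0.27, miR-99a at 0.34 and miR-95 at 0.55. The profile of miR-152 was closer to that of miR-148b-3p, at 0.86, than to that of miR-148a-3p, at 2.27. Nearest to miR-148a-5p were miR-574 at 0.14, miR-26a at 0.17 and miR-30e-3p at 0.21, and to miR-148b-5p miR-126-5p at 0.13, let-7i at 0.16 and miR-149 at 0.22.

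miR-130a and miR-130b have a seed that overlaps that of the family, shifted by 1 base, and both inhibit fat cell differentiation in human cells. miR-130a measured 40.5 CPM in Diannan Small Ear, 35.7 in Landrace, 6.78 in Tibetan and 3.26 in Yorkshire. It was low in the libraries in which miR-148b-3p and miR-152 were high, 5.97-fold higher in Diannan Small Ear than in Tibetan and 11.0-fold higher in Landrace than in Yorkshire. miR-130b had 29, 41, 8 and 0 counts in the same order. Between the types their log2 fold changes were 0.27 ± 1.56 and -0.12 ± 1.61 (edgeR adjusted p = 0.996 for both).

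Among 25 tested miRNA rows of myogenic differentiation and proliferation, 0 passed in either direction between the types, and 11 estimates were higher and 14 lower in the indigenous type, at a median of -0.072. The median over all tested miRNAs was 0.12. Of the 24 rows with reads in all libraries, 9 were at least 2-fold lower and 7 at least 2-fold higher in both Diannan Small Ear over Tibetan and Landrace over Yorkshire. Across 191 miRNAs these shares were 29.3% and 22%. By mean CPM over the 4 libraries miR-1 and miR-486 ranked highest in the list, although miR-1 was low in Diannan Small Ear and Landrace and miR-486 lay below miR-133a-3p in Tibetan and Yorkshire. The level of miR-486, which both muscle and red cells hold in abundance, went against that of miR-152, with 88485 CPM in Diannan Small Ear, 64364 in Landrace, 5814 in Tibetan and 5793 in Yorkshire.

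Among 24 tested rows of adipocyte differentiation, 0 passed, with 14 estimates higher and 10 lower in the indigenous type and a median of 0.14. Of 23 with reads in all libraries, 6 (26.1%) were at least 2-fold lower and 7 (30.4%) at least 2-fold higher in both breed comparisons, against the same 29.3% and 22% of 191 miRNAs. miR-143-3p, which promotes fat cell differentiation, measured 10759 CPM in Diannan Small Ear, 13015 in Landrace, 14558 in Tibetan and 7406 in Yorkshire. It did not share the pattern of miR-152. miR-27b-3p, an inhibitor of the same process, measured 7259, 8461, 2754 and 2901 CPM in that order. miR-20a, the profile nearest to miR-152, is also in this list, among the 6 lower rows and against the 7 higher. It was 41.1-fold higher in Tibetan than in Diannan Small Ear and 18.7-fold higher in Yorkshire than in Landrace.

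Markers of other cell types moved with the split between libraries in part. The 3 erythroid rows summed to 88552 CPM in Diannan Small Ear and 64481 in Landrace, against 6183 in Tibetan and 5930 in Yorkshire, and nearly all of this was miR-486. The erythroid miR-451 itself measured 63.7, 111, 234 and 93.4 CPM in the order Diannan Small Ear, Landrace, Tibetan and Yorkshire. The erythroid miR-144 went the other way from miR-486, with 3.67, 6.31, 136 and 44.0 CPM in that order, and so moved with miR-152. The 4 liver rows summed to 584 and 475 CPM in Diannan Small Ear and Landrace and to 31.1 and 92.3 CPM in Tibetan and Yorkshire. miR-192 made up most of the higher sums, with 499, 417, 7.07 and 7.06 CPM in the same order as above. miR-885-5p measured 81.9, 41.1, 20.6 and 77.6 CPM and miR-122, the defining liver miRNA, 2.67, 14.1, 2.83 and 4.89 CPM. miR-194a, left out because the list names it miR-194, went the other way from miR-192. Its TMM-scaled log2 ratio was -0.37 for Diannan Small Ear over Tibetan and -1.25 for Landrace over Yorkshire. As a share of total counts, the 8 striated muscle rows made up 5.83% in Diannan Small Ear and 7.36% in Landrace. They made up 89.9% in Tibetan and 96.7% in Yorkshire, where miR-1 alone took 83.4% and 92.6%. In Diannan Small Ear and in Landrace 1 row was at 0. Of the 7 rows with reads in all libraries, 4 were at least 2-fold lower in both breed comparisons on the TMM scale, and 0 higher. This was 57.1%, against 29.3% of 191 miRNAs. miR-208b went the other way, with 86.9, 195, 48.6 and 77.6 CPM in Diannan Small Ear, Landrace, Tibetan and Yorkshire. The 9 stromal and smooth muscle rows summed to between 9092 and 16987 CPM, the 2 endothelial rows to between 1817 and 3011 CPM and the 6 white blood cell rows to between 191 and 339 CPM. Within these sums some rows moved with miR-152. miR-126-3p of endothelium measured 146, 180, 1152 and 578 CPM in Diannan Small Ear, Landrace, Tibetan and Yorkshire, while miR-126-5p measured 2365, 2726, 1859 and 1238 CPM. miR-142-3p of white blood cells measured 1.5, 1.98, 24.3 and 19.0 CPM, while miR-142-5p measured 34.9, 25.2, 36.2 and 37.5 CPM. miR-142-3p alone of the 6 rows (16.7%) was at least 2-fold lower in both Diannan Small Ear than Tibetan and Landrace than Yorkshire. The share across 191 miRNAs was 29.3%. Of 8 tested stromal and smooth muscle rows, 4 (50%) were at least 2-fold lower in both comparisons, against the same 29.3% of 191 miRNAs. They were miR-145-5p, miR-145-3p, miR-199a-5p and miR-199b-5p. miR-143-3p, the most abundant stromal row, was not among them. The 2 epithelial and the 3 neural rows stayed at or below 3.26 CPM in every library. The part of these differences, and of the miR-1 and miR-10b shares, in the levels of miR-148b-3p and miR-152 was not tested.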

How the data were processed

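Whole-number read counts for 271 known miRNAs in 4 libraries were used as the authors deposited them, per the file headers. The authors' CPM values equalled each count over its column total to within 4.2e-05, and their mean signal per type, fold ratio, p-value and FDR columns were deposited beside them, per the file headers. No aligner, database or genome build is named in the sources used here. RNA was extracted with Trizol, per the labels' protocols.

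The test of types was the two-sided quasi-likelihood test of edgeR 4.0.16 (glmQLFit, glmQLFTest) after filterByExpr and TMM scaling, with 2 residual degrees of freedom. The fit with the library pair term leaves fewer. The SE is the log2 fold change over the square root of F. Log2 CPM used a prior count of 2. On simulated data the test recovered the changed miRNAs at a low spread between libraries but not at the spread estimated here. A lack of calls therefore does not show that levels were alike. Apart from the type changes, the simulation drew libraries independently around a shared profile, without the paired resemblance seen here. Ratios of counts carry 95% exact binomial intervals, ratios of ratios conditional exact odds ratio intervals and shares Wilson intervals (scipy 1.17.1), all for counting error only. A count of 0 allows up to 3 counts, or 0.561 to 1.20 CPM by total counts. On the TMM scale 3 counts in Yorkshire were 1.63 CPM.

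Alternatives were total-count, upper-quartile and RLE scaling, no or a stricter filter (50 counts in 2 libraries), DESeq2 1.42.0, limma-voom (limma 3.58.1), leaving out the 5 most abundant miRNAs, a library pair term, 5 rather than 0.5 counts added to ratios, and each library left out. Named miRNAs were all family rows, the 3 nearest profiles, miR-130a and miR-130b, the 2 most abundant rows of the pathway lists and the 2 precursors nearest in arm-ratio span; rows named among cell type markers were picked after their values were seen. The members and lists were chosen with earlier results of these data known. Ratios with miR-148b were added after seeing the data.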

Additional observations from a re-analysis of the deposited data

How the results depend on the processing

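The labels give the libraries no replicate numbers, so the paired fit, with a library pair term, rests on the resemblance of the libraries and not on the design. The direction of the type difference, called in no setting for the family, turned for miR-148a-3p with total counts (log2 fold change 0.10), without the low-count filter (0.016) and with the library pair term (0.023). It turned for miR-148b-3p with total counts (1.03), limma-voom (0.031) and the pair term (0.12), and for miR-148b-5p with RLE (-0.11), upper-quartile (-0.068) and total-count scaling (-0.47), DESeq2 (-0.11) and without the 5 most abundant miRNAs (-0.15). miR-148b-5p did not pass the stricter filter. miR-152 and miR-148a-5p kept their direction in these settings. The pair term called 1 miRNA in all, against 0 in every other setting. With 1 library left out, which sets 1 against 2 and assumes that the lone library varies like the others, the log2 fold change ran from -0.17 (without Tibetan) to 0.26 (without Yorkshire) for miR-148a-3p, -2.41 (without Tibetan) to 2.56 (without Yorkshire) for miR-148b-3p and -3.88 (without Tibetan) to 4.08 (without Yorkshire) for miR-152. For miR-148a-5p it reached -0.68 without Diannan Small Ear and 0.99 without Landrace, for miR-148b-5p -0.63 without Yorkshire and 1.36 without Landrace, and 0 miRNAs were called. The type difference in log2 ratio ran from -2.45 to 2.76 for miR-152 over miR-148a-3p, -1.36 to 1.56 for miR-148b-3p over miR-148a-3p and -1.21 to 1.09 for miR-148b-3p over miR-152. For the arms it ran from -1.07 to 0.67 in miR-148a and -2.72 to 2.44 in miR-148b, where 5 added counts turned it from -0.14 to 0.22. For Diannan Small Ear over Tibetan, the log2 ratio of miR-148a-3p was -0.10 with RLE, 0.13 with total counts and 0.062 without the 5 most abundant, that of miR-148b-3p -3.02, -2.79 and -2.85, and that of miR-152 -5.09 with total counts and -5.16 without the 5. For Landrace over Yorkshire, miR-148a-3p had -0.49, 1.98 and -0.35 and miR-148b-3p -3.41, -0.94 and -3.27 with RLE, total counts and without the 5. miR-152 had -1.80 with total counts and -4.13 without the 5, and with total counts miR-148a-5p had 3.51 and miR-148b-5p 4.41. Across the types, total counts turned Diannan Small Ear over Landrace for miR-148a-3p (-0.51), miR-148b-3p (-0.41) and miR-148a-5p (-0.19), Tibetan over Yorkshire for miR-148a-3p (1.34), miR-148b-3p (1.44) and miR-148a-5p (from -0.075 to 1.44), and miR-148a-3p for Diannan Small Ear over Yorkshire (1.47) and Tibetan over Landrace (-0.64). Apart from the effect of the scaling factors themselves, the cause was not tested. The 3 to 30 counts of miR-148b-5p widen the counting interval of its arm ratio, and 1 library a breed gives no replicate check.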
